A study of Rattus norvegicus with 47 samples.

Results

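The 9 genes described here encode proteins that circulating leukocytes and platelets use to hold on to a vessel wall and to each other: the selectin Selp, the selectin ligand Selplg, the integrin subunits Itgam, Itgal, Itgax, Itga4 and Itgb2, the integrin ligand Icam1, and the hyaluronan receptor Cd44. They were taken by gene symbol, 9 genes among the 27596 probe sets of the deposited table, each through the probe set of that symbol with the highest mean over the 6 time points. Each of the 9 symbols stood on exactly 1 probe set, and no other symbol shared it. Blood came from 8 male spontaneously hypertensive rats (SHR) of 16 weeks, in which a thread closed the middle cerebral artery (MCA occlusion, MCAo) and was later withdrawn, between the 1 h and 2 h samples. The 0 h group was sampled before anesthesia and occlusion, the 1, 2, 3 and 6 h groups from the tail vein after it, and the 24 h group by heart puncture after an isoflurane overdose. Every rat had the surgery, the thread and the isoflurane, and no sham-operated group was analysed here, so that surgery, anesthesia, time of day and stroke cannot be told apart. There were 8 arrays at each time point and 7 at 6 h.

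Leukocytes leave the blood in steps. P-selectin, stored in platelet and endothelial granules, gives a first loose contact by binding sugars on PSGL-1, the product of Selplg. Integrins, each a pair of an alpha and a beta chain, then give firm adhesion: Itgal, Itgam and Itgax encode the alpha chains CD11a, CD11b and CD11c, which all pair with CD18, encoded by Itgb2, and bind ligands that include ICAM-1. The alpha chain of Itga4 pairs with other beta chains and binds VCAM-1. In stroke these molecules are known for the entry of neutrophils and other leukocytes into the ischemic vessels and brain.

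The values are log2 RMA signal, a background-corrected, quantile-normalized array intensity on a log scale, given as the authors' mean ± SD at each time point, and a difference of 1 is a 2-fold change. A change was called where limma's moderated test, run on the deposited means, SDs and array numbers, gave a Benjamini-Hochberg adjusted p under 0.05 over all 27596 probe sets. All changes are relative: the median probe set moved by 0.04 to 0.07 from 0 h at the later time points. The samples behaved as blood: Hbb, a hemoglobin chain, and Alas2, the first enzyme of heme synthesis in red cells, had levels of 13.5 and 13.4 averaged over the 6 time points, close to the highest mean in the table at 0 h (13.6). The platelet chemokine Pf4 stood at 13.1. In whole blood, fewer cells of a type and less RNA per cell cannot be told apart.

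Over the 24 h, 3 members were called higher at every time point through 6 h (Selp, Itgam and Selplg), 2 were lower at all 5 time points (Itga4 and Itgal), and Itgb2, Itgax, Cd44 and Icam1 differed from 0 h by at most 0.37. The F-test over the 6 time points called 8 of the 9 genes changed, against 55.5% of all probe sets, and the exception was Icam1. At 1 h, 3 members were called higher and 2 lower (all probe sets: 21.7% higher and 15.4% lower), and with centred means 2 were higher and 4 lower (all probe sets: 12.6% and 18.8%). At 2 h the counts were 3 and 3 (21.7% and 18.6%). They were 3 and 4 at 3 h (27.3% and 19.2%) and 4 and 4 at 6 h (22.5% and 19.3%). The 24 h sample had 2 of each (17.4% and 13.9%). The median change of the 9 genes lay near 0, between -0.12 and 0.12. The median size of their change ran from 0.27 at 24 h to 0.46 at 6 h, where that of all probe sets was 0.128 and 0.155. Centring each time point on its median turned the split of all calls at 1 h from 58.6% higher to 40.0% higher, at 3 h from 58.7% to 47.2% and at 24 h from 55.6% to 37.3%. It also turned the majority at 2 h (53.9% to 44.2%) and at 6 h (53.8% to 44.6%).

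**Figure D1:**
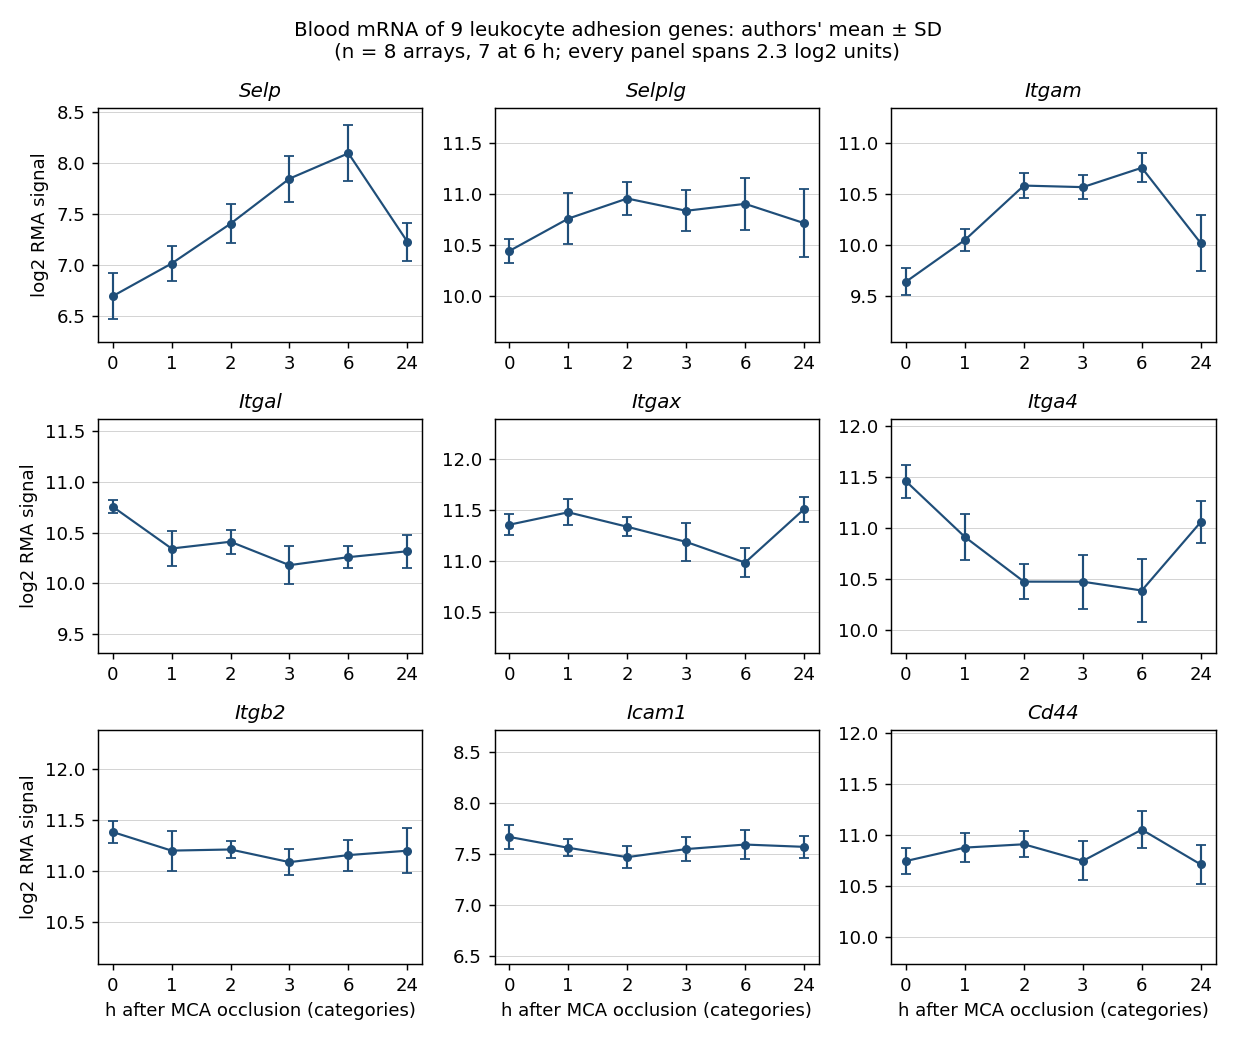
Authors' mean log2 RMA signal (points) with the authors' SD (bars) of the 9 genes, over 8 arrays at each time point and 7 at 6 h, against hours after MCA occlusion as equally spaced categories, with every panel spanning the same range of signal. Selp and Itgam climbed to 8.10 and 10.76 at 6 h, Itga4 dropped from 11.46 to 10.39, and the means of Icam1 stayed between 7.47 and 7.67.

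Selp, which encodes P-selectin, had the largest change of the 9 genes. Its authors' mean was 6.70 ± 0.22 before occlusion and 7.02 ± 0.17, 7.41 ± 0.19, 7.85 ± 0.23, 8.10 ± 0.27 and 7.23 ± 0.19 at 1, 2, 3, 6 and 24 h (authors' SD, n = 8, and 7 at 6 h). From 2 h on, each mean minus its SD lay above the 0 h mean plus its SD. The rise was called at all 5 time points, from 0.32 at 1 h (SE 0.10, adjusted p = 0.0128) to 1.40 at 6 h (SE 0.11, 95% confidence interval 1.19 to 1.62, adjusted p = 2.87e-15), a 2.64-fold increase. By size the 6 h change exceeded that of 99.0% of all probe sets. Selp was the only one of the 9 genes called in the step from 2 to 3 h (0.44, SE 0.10, adjusted p = 0.00677), and its further step to 6 h did not pass the test (0.25, adjusted p = 0.193). Between 6 and 24 h it fell by 0.87 (adjusted p = 1.20e-08), which left 38.1% of its largest change in the 24 h sample.

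On rn5 chromosome 13, Selp lies at chr13:87308490-87344164 on the + strand, and Sele, the gene of the endothelial selectin, at chr13:87235335-87244746 on the same strand. Sele had a mean of 5.87 before occlusion, below the median of all probe sets (6.61), and its F-test was not called (adjusted p = 0.112). Its values were called higher at 2 h (0.16, adjusted p = 0.0474) and 3 h (0.19, adjusted p = 0.0144).

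Markers of platelets, the blood cells that store P-selectin, were highest at 1 h and 24 h and lowest at 6 h among the later samples. The mean of the 11 platelet markers found by symbol changed by 0.29, 0.18, 0.14, 0.05 and 0.28 at the 5 later time points. The listed markers Itgb3, Gp6 and Tubb1 were not found by symbol, although the paper reports a value for Itgb3. Of these 11, 8 changed over time, and the numbers called higher were 7, 4, 3, 0 and 7, and none was called lower. At 6 h, 0 of the 11 had an unadjusted p under 0.05. Those with the highest signal, Clec1b, a platelet receptor, and Pf4, were not called over time (adjusted p = 0.464 and 0.341). Both had a mean of 13.1 over the time points, near the top of the table's signal range. Ppbp, a platelet chemokine and the next highest in signal, was called over time (adjusted p = 0.0191) and was higher by 0.30 at 24 h (adjusted p = 0.0278). The 6 endothelial markers found by symbol changed by 0.05 to 0.18 on average. At the 5 later time points, 2, 3, 3, 1 and 2 of 6 were called higher, and 1 was lower at 1 h. The part of platelets or endothelial cells in the rise of Selp was not tested.

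Selplg encodes PSGL-1, the mucin that P-selectin binds. Its mean was 10.44 ± 0.11 before occlusion and 10.76 ± 0.25, 10.96 ± 0.16, 10.84 ± 0.20, 10.90 ± 0.25 and 10.72 ± 0.34 at 1, 2, 3, 6 and 24 h. The mean minus SD at 1 h and at 24 h fell below the 0 h mean plus SD, and those at 2, 3 and 6 h stood above it. It rose by 0.32 at 1 h (SE 0.11, adjusted p = 0.0217) and 0.51 at 2 h (adjusted p = 1.94e-04), its highest, and the differences of 0.39 at 3 h (adjusted p = 0.00338) and 0.46 at 6 h were called as well (adjusted p = 0.00106). At 24 h the difference was 0.27 (95% confidence interval 0.05 to 0.50) with an adjusted p of 0.0547. Of its calls, the one at 1 h depended on scaling: with centred means the difference was 0.27 (adjusted p = 0.0591).

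PSGL-1 binds selectins only once enzymes have built the right sugars and sulfates on it. Of these enzymes, the fucosyltransferase genes Fut4 and Fut7 and the tyrosylprotein sulfotransferase gene Tpst1 were not called over time. Their adjusted p were 0.344, 0.154 and 0.156. Against 0 h, Fut7 was called higher at 6 h (0.16, adjusted p = 0.0469). The probe set of Tpst1 carries 2 symbols, so its values cannot be given to a single gene. Tpst2, the other sulfotransferase gene, was called higher at 2 h (0.21, adjusted p = 0.0102). B4galt1, also listed, was called higher at 3 h (0.38, adjusted p = 9.63e-04) and 6 h (0.29, adjusted p = 0.0140). All of these were named after their values were seen. St3gal4, a sialyltransferase, was lower at 1 h (-0.36, adjusted p = 0.0241), then rose by 0.55, 1.78 and 1.89 at 2, 3 and 6 h (adjusted p = 2.11e-16 for the last), and stood 0.19 from its start at 24 h (adjusted p = 0.271). Gcnt1, which starts the core 2 branch of O-glycans, rose by 0.92, 1.37, 1.44 and 1.14 at 1, 2, 3 and 6 h (adjusted p = 7.68e-13 at 3 h), with 0.12 left at 24 h (adjusted p = 0.492). St3gal6, another sialyltransferase, named after its values were seen, was called lower at all 5 time points, with changes of -0.92, -1.35, -1.39, -1.03 and -0.56 (adjusted p = 1.10e-16 at 3 h). Of the listed genes that encode carriers of such sugars, Spn, encoding the sialomucin CD43, fell by 1.55 at 3 h (adjusted p = 2.41e-17), and Cd24, a small mucin-like protein that B cells carry and that P-selectin can bind, fell by 1.50 (adjusted p = 7.49e-14). Among the 16 selectin and selectin ligand genes listed, 11 changed over time, and the numbers called higher at 1, 2, 3, 6 and 24 h were 4, 8, 7, 6 and 2, and the numbers called lower 5, 3, 4, 4 and 3.

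Cd44 encodes the main receptor for hyaluronan and also carries sugars that bind selectins. Its mean was 10.75 ± 0.13, 10.88 ± 0.14, 10.91 ± 0.13, 10.75 ± 0.19, 11.06 ± 0.18 and 10.71 ± 0.19 at 0, 1, 2, 3, 6 and 24 h; the 6 h mean was the highest, and the range of mean ± SD overlapped that of 0 h at all 5 later time points. The 6 h value was called, at 0.31 above 0 h (SE 0.08, adjusted p = 0.00233), a 1.24-fold increase. The steps on both sides of it were called too, 0.31 from 3 to 6 h (adjusted p = 0.0199) and a fall of 0.34 from 6 to 24 h (adjusted p = 0.00174). With the variance of the compared time points alone, the step from 3 to 6 h missed the threshold (adjusted p = 0.0885). The differences from 0 h at 3 h and 24 h were 0.00 and -0.03, and their sign turned with the scaling of the means.

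**Figure D2:**
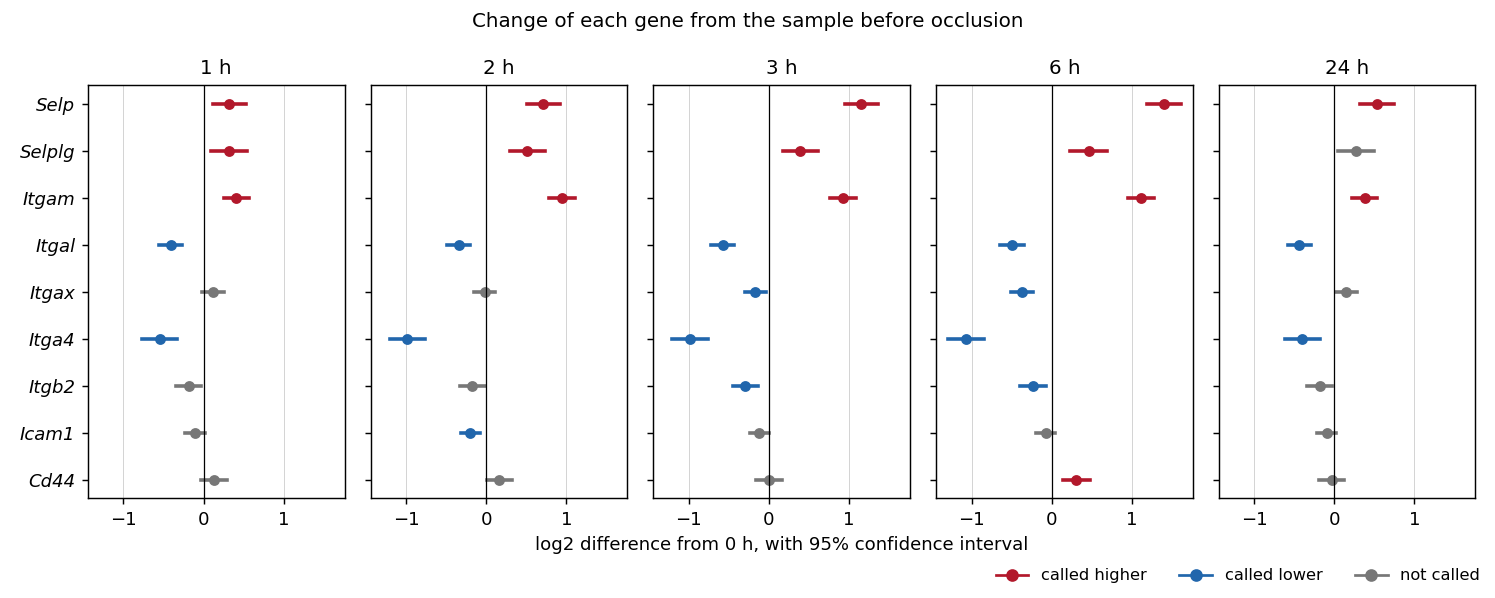
Difference of each gene from 0 h on the log2 scale (points) with its 95% confidence interval (bars) at 1, 2, 3, 6 and 24 h, in red where called higher, blue where called lower and gray where not called by the moderated test. At 6 h the intervals of Selp and Itgam lie between 0.95 and 1.62, and that of Itga4 between -1.30 and -0.85.

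The alpha chains that share the beta 2 partner moved in different directions. Itgam, which encodes CD11b of the neutrophil and monocyte integrin Mac-1, had a mean of 9.64 ± 0.13 before occlusion and 10.05 ± 0.11, 10.58 ± 0.12, 10.57 ± 0.12, 10.76 ± 0.14 and 10.02 ± 0.28 in the 5 later samples. The mean minus SD was above the 0 h mean plus SD from 1 to 6 h but not at 24 h. It rose at all 5 time points, by 0.41 at 1 h (SE 0.08, adjusted p = 7.83e-05), by 0.94 at 2 h (adjusted p = 1.03e-13), and after 0.93 at 3 h by 1.12 at 6 h (SE 0.08, 95% confidence interval 0.95 to 1.28, adjusted p = 1.03e-15), a 2.17-fold increase. Of its largest change, 84.4% was reached at 2 h and 33.8% was left at 24 h (0.38, adjusted p = 3.03e-04). In the step from 1 to 2 h, across which the thread was withdrawn, Itgam rose by 0.53 (adjusted p = 6.55e-06), Selp by 0.39 (adjusted p = 0.00983), and Itga4 fell by 0.44 (adjusted p = 0.00563). These were 2 members higher and 1 lower, where 4.66% and 4.11% of all probe sets were called. With centred means the split of all calls in this step moved from 53.1% to 64.4% higher.

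Itgal, which encodes CD11a of LFA-1, the beta 2 integrin common to lymphocytes and other leukocytes, fell. Its mean was 10.75 ± 0.07 before occlusion and 10.34 ± 0.18, 10.41 ± 0.12, 10.18 ± 0.19, 10.26 ± 0.11 and 10.32 ± 0.16 at 1, 2, 3, 6 and 24 h. All 5 later means plus SD lay below the 0 h mean minus SD. The difference was -0.41 at 1 h (SE 0.07, adjusted p = 1.52e-05), then -0.34 at 2 h and -0.57 at 3 h (SE 0.07, adjusted p = 6.52e-09), its lowest, then -0.50 at 6 h and finally -0.44 (adjusted p = 7.78e-06). No step of Itgal after 1 h was called, and 76.2% of its largest change was still there at 24 h.

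Itgax, encoding CD11c of monocytes and dendritic cells, had its lowest mean at 6 h and its highest at 24 h. Its mean was 11.35 ± 0.10, 11.48 ± 0.13, 11.33 ± 0.09, 11.19 ± 0.19, 10.98 ± 0.14 and 11.51 ± 0.12 at 0, 1, 2, 3, 6 and 24 h. The range of mean ± SD left that of 0 h at 6 h, where it lay below it. It differed from 0 h by 0.12 at 1 h (adjusted p = 0.150) and -0.02 at 2 h (adjusted p = 0.835), then fell to -0.17 at 3 h (adjusted p = 0.0361) and -0.37 at 6 h (SE 0.07, adjusted p = 2.31e-05). The 3 h call was lost with the variance of the compared time points alone (adjusted p = 0.0797). From 6 to 24 h it rose by 0.52 (SE 0.07, adjusted p = 7.28e-08), to 0.15 above 0 h (95% confidence interval 0.02 to 0.29, adjusted p = 0.0777). Blood was taken from another site at 24 h, and time and site cannot be told apart.

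Itgb2, the shared beta chain, was called lower at 3 and 6 h. Its mean was 11.39 ± 0.10 before occlusion and 11.20 ± 0.20, 11.21 ± 0.09, 11.09 ± 0.13, 11.16 ± 0.15 and 11.20 ± 0.22 at 1, 2, 3, 6 and 24 h. At 3 h the range of mean ± SD lay below that of 0 h, and at the other 4 time points the ranges overlapped. It was lower by 0.30 at 3 h (SE 0.08, adjusted p = 0.00173) and by 0.23 at 6 h (adjusted p = 0.0202). The differences at 1, 2 and 24 h were -0.18, -0.17 and -0.18, with adjusted p-values of 0.0581, 0.0716 and 0.0645. These 3 values passed the threshold with centred means (adjusted p = 0.0185, 0.0375 and 0.0256). Whether the change of Itgb2 differed from that of its alpha chains was not tested, since the single-array columns carry a running number that no label ties to a rat and an hour, and were not used.

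On rn5 chromosome 1, Itgal (chr1:205742369-205780278), Itgam (chr1:206522889-206573171), Itgax (chr1:206583799-206604029) and Itgad (chr1:206624032-206669617) follow each other on the + strand. The end of Itgam and the start of Itgax are 10627 bases apart, and Itgad, which encodes CD11d, begins 20002 bases after the end of Itgax. Of these last 3 neighbours at 6 h, Itgam was higher by 1.12, and Itgax and Itgad were lower, by 0.37 and by 0.52 (adjusted p = 5.44e-08 for Itgad). Whether the probes of one of these related subunits also bind the RNA of another was not tested. The probe sets of the other members span Selplg at chr12:50359789-50361080 and Itga4 at chr3:72650161-72825637 on the + strand, Icam1 at chr8:22092143-22103928 on the + strand, and Itgb2 at chr20:13944378-13981048 and Cd44 at chr3:99339448-99426062 on the - strand, all of rn5.

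Itga4, which encodes CD49d of VLA-4, a receptor that lymphocytes and monocytes use to bind VCAM-1 and fibronectin, had the largest fall of the 9 genes. Its mean was 11.46 ± 0.16 before occlusion, and 10.91 ± 0.22, 10.47 ± 0.17, 10.47 ± 0.27, 10.39 ± 0.31 and 11.06 ± 0.20 at the 5 later time points. All 5 later means plus SD lay below the 0 h mean minus SD. It fell by 0.55 at 1 h (SE 0.11, adjusted p = 1.07e-04), by 0.98 at 2 h (adjusted p = 2.51e-10) and 0.99 at 3 h, and reached a fall of 1.07 at 6 h (SE 0.11, 95% confidence interval -1.30 to -0.85, adjusted p = 6.10e-11), to 0.476 of its level before occlusion. From 6 to 24 h it rose by 0.67 (adjusted p = 9.11e-06), to 0.40 below its start (adjusted p = 0.00443). Itgb1, its beta 1 partner, had the second largest called fall among the other integrin subunits after Itgad, -0.34 at 2 h (adjusted p = 7.56e-04), and differed from 0 h by 0.04 at 24 h (adjusted p = 0.749). Itgb7, its beta 7 partner, named after its values were seen, was called higher at 1, 2, 3 and 6 h, by 0.29, 0.57, 0.40 and 0.28 (adjusted p = 1.18e-07 at 2 h).

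The promoters of Itgam and Itga4 are shown because these integrin genes moved by similar amounts in opposite directions. RefSeq's promoter table (GRCr8, 250 bases before to 50 after the annotated start) held 5 of the 9 genes, Itgam, Itgax, Itga4, Icam1 and Cd44, and had no entry for Selp, Selplg, Itgal and Itgb2. Both are printed 5′ to 3′ on the + strand, Itgam at chr1:192089342-192089641 and Itga4 at chr3:84569765-84570064 of GRCr8. Capitals mark matches, on either strand, to any of 6 short motifs searched.
Itgam: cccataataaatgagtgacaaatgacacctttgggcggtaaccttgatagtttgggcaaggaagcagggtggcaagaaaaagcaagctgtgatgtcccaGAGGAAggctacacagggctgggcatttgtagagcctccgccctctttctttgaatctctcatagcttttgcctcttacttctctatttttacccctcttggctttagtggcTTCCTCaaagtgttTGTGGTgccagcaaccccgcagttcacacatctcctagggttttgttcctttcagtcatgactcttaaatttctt
Itga4: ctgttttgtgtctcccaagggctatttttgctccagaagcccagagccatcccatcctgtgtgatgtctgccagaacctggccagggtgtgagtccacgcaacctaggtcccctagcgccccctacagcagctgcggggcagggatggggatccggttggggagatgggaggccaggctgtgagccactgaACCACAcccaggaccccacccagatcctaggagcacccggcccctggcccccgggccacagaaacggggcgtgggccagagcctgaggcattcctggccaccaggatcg
GAGGAA, the core bound by the myeloid factor PU.1, was in the Itgam promoter 2 times, beginning 151 bases before the start and, on the opposite strand, 39 bases before it, and in none of the other 4 promoters. Of all 33469 promoters of this length, 27.6% held it. TGTGGT, the core bound by RUNX factors, began 25 bases before the start of Itgam and, on the opposite strand, 59 bases before that of Itga4, and 17.3% of all promoters held it. TGACTCA, the AP-1 site, was found in Itgax alone of the 5, on the opposite strand 56 bases before its start, and in 4.63% of all promoters. No 2 of these matches overlapped, and a match of letters is a description, not a bound site.

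Icam1 encodes ICAM-1, a ligand of the beta 2 integrins on endothelium and leukocytes, and changed least. Its mean was 7.67 ± 0.11, 7.56 ± 0.08, 7.47 ± 0.11, 7.55 ± 0.12, 7.60 ± 0.14 and 7.57 ± 0.11 at 0, 1, 2, 3, 6 and 24 h, with ranges of mean ± SD that overlapped that of 0 h throughout. All 5 differences from 0 h were below 0, from -0.07 at 6 h to -0.20 at 2 h, a value that was called (SE 0.06, 95% confidence interval -0.32 to -0.08, adjusted p = 0.00612). That call was lost after quantile normalization of the means (-0.12, adjusted p = 0.127), which also turned the 6 h difference to 0.01. With centred means Icam1 was called lower at 1 h and 3 h as well (-0.16 at both, adjusted p = 0.0392 and 0.0293). The F-test missed the threshold (adjusted p = 0.0870), and with centred means it passed (adjusted p = 0.0295). Icam1 is a standard target of NF-kB, and its promoter (GRCr8, chr8:27829595-27829894, + strand) is shown with the matches to the same 6 motifs in capitals.
Icam1: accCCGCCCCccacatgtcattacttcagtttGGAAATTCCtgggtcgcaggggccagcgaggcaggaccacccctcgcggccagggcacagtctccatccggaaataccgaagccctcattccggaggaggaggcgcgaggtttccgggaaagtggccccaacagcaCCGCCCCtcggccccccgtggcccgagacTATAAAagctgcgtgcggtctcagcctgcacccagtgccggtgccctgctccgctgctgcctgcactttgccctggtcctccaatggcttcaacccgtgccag
GGAAATTCC, an NF-kB type site, began 218 bases before the start, a stretch of letters present in 0.332% of all promoters and in none of the other 4 genes listed. TATAAA, the TATA box, began 53 bases before the start (14.2% of all promoters), and GGGGCGG, the GC box, was there 2 times on the opposite strand, 247 and 82 bases before it (20.6%). None of the other 4 promoters held either of them.

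In the steps between neighbouring time points after 2 h, few members moved until the last. From 2 to 3 h, 1 member was higher and 0 lower (1.9% and 1.62% of all probe sets), and from 3 to 6 h again 1 and 0 (2.34% and 2.44%). With an unadjusted p under 0.05, 1 member was higher (Selp) and 3 lower (Itgal, Itgax and Cd44) from 2 to 3 h, and 3 were higher (Selp, Itgam and Cd44) and 1 lower (Itgax) from 3 to 6 h. At that threshold 9.20% of all probe sets were higher and 6.65% lower in the first of these steps, and 7.86% and 9.78% in the second. With centred means, Itgal was called lower from 2 to 3 h (-0.24, adjusted p = 0.0486). From 6 to 24 h, 2 members were higher, Itga4 and Itgax, and 3 lower, Selp, Itgam and Cd44 (10.2% and 8.68%).

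Beyond the 9 genes, 80 other genes of leukocyte adhesion on 6 lists were found by symbol. They stood on 79 probe sets, since Icam4 and Icam5 share 1. Of these 80, the numbers called higher at 1, 2, 3, 6 and 24 h were 20, 28, 31, 31 and 21, and the numbers called lower 18, 16, 21, 19 and 10. As shares these were 25%, 35%, 38.75%, 38.75% and 26.25% higher, and 22.5%, 20%, 26.25%, 23.75% and 12.5% lower, beside the shares of all probe sets given above. With centred means the 1 h counts became 13 higher and 22 lower. Their median change was 0.04 at 1 h and 0.09 at 3 h, beside 0.05 and 0.07 for all probe sets.

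Among the other integrin subunits found by symbol, 14 of 19 changed over time. The listed Itgae and Itgb3 were not found by symbol. The numbers called higher at 1, 2, 3, 6 and 24 h were 7, 7, 10, 5 and 7, and lower 1, 3, 3, 4 and 0, with 2 lower at 24 h by an unadjusted p under 0.05. The single lower call at 1 h was Itga9, whose probe set carries 3 symbols, among them the NK cell marker Eomes, so that its values cannot be given to one gene. Itga5, the alpha chain of the fibronectin receptor, was not called at 1 h (-0.09, adjusted p = 0.284) and rose to 0.70 at 6 h (adjusted p = 1.35e-12). Itga8, a subunit of mesenchymal cells, had a low mean before occlusion (6.57) and rose by 0.79 at 3 h (adjusted p = 5.27e-09). Of the counter-receptors, 10 of 11 changed over time, with 6, 4, 5, 6 and 5 called higher at the 5 time points and 2, 2, 3, 2 and 2 lower. F11r, encoding the junctional protein JAM-A, which platelets also carry, rose by 0.58 at 1 h (adjusted p = 0.00195), and Vcam1, the ligand of VLA-4, rose by 0.35 at 3 h (adjusted p = 7.24e-05) from a mean of 5.74. Thy1, a surface protein that Mac-1 can bind, fell by 1.48 at 6 h (adjusted p = 9.11e-13), and Icam2 fell by 0.39 at 1 h (adjusted p = 1.70e-05).

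Of the genes that switch integrins on, 13 of 16 changed over time, with 1, 3, 3, 5 and 4 called higher at the 5 time points and 4, 3, 6, 5 and 2 lower. Fermt3, encoding kindlin-3, which binds the tails of beta chains in blood cells, rose by 0.45 at 24 h (adjusted p = 0.00163), and the cytoskeletal linker Vcl rose by 0.56 at 24 h (adjusted p = 1.60e-04). Cytip, which restrains LFA-1, fell by 0.94 at 2 h (adjusted p = 5.07e-11), and Skap1, a T cell adaptor for LFA-1, by 0.91 at 6 h (adjusted p = 2.09e-12). In integrin and PSGL-1 signalling, 10 of 11 changed over time, with 0, 4, 4, 6 and 1 called higher and 2, 1, 2, 2 and 1 lower. By an unadjusted p under 0.05, 1 was higher at 1 h. The myeloid adaptor Tyrobp rose by 0.48 (adjusted p = 2.20e-05) and the Src-family kinase Fgr by 0.45 (adjusted p = 1.18e-04), and Pik3cg, a kinase of chemokine signalling, fell by 0.80 (adjusted p = 1.64e-10), all at 6 h. Plcg2, a phospholipase of B cell and myeloid receptors, fell by 0.65 at 3 h (adjusted p = 3.30e-09).

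All 7 genes for membrane linkers and sheddases changed over time, with 2, 2, 2, 3 and 2 called higher and 4, 4, 3, 2 and 2 lower. The largest rise of any of the 80 was in Mmp9, a gelatinase that neutrophils release, by 2.06, 2.75, 2.31, 2.43 and 1.15 at the 5 time points (adjusted p = 1.11e-17 at 2 h), with an authors' SD of up to 0.65. Adam8, a protease that can cleave adhesion molecules, rose by 1.51 at 2 h (adjusted p = 9.98e-20). Ezr and Rdx, the linkers ezrin and radixin that tie CD44, PSGL-1 and CD43 to actin, fell by 0.75 at 3 h (adjusted p = 1.14e-12) and by 0.54 at 6 h (adjusted p = 7.97e-10).

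Markers of whole cell types also changed over these hours. Of 14 neutrophil markers, 13 were called higher in the 1 h sample, 12 in each of the next 3 and 8 in the last, and their mean change was 0.95, 1.30, 1.10, 1.29 and 0.43 at 1, 2, 3, 6 and 24 h. The exception in direction was Ngp, a granule protein, lower by 0.90 at 24 h (adjusted p = 0.00259) and named after its value was seen. S100a9, a calcium-binding protein of neutrophils, rose by 1.51 at 6 h, and Cxcr2, a receptor for neutrophil chemokines, by 1.59. Of 12 T cell markers, 11 were called lower at both 1 h and 2 h and all 12 from 3 h on, and the list moved on average by -0.41, -0.85, -0.96, -1.14 and -0.71. Il7r, the interleukin-7 receptor, also named after its value was seen, was the 1 called higher, by 0.36 at 1 h (adjusted p = 0.00991). Cd8a, the co-receptor of cytotoxic T cells, was lower by 1.28 at 6 h. Of 10 B cell markers, the numbers called lower were 9, 10, 9, 9 and 8, and the average moves -1.33, -1.76, -1.77, -1.47 and -0.50. Of 11 monocyte markers, 1, 3, 4, 4 and 0 were called higher and 7, 5, 6, 6 and 5 lower, with a list average between -0.42 and -0.29. Of 8 NK cell markers, 2, 2, 1, 2 and 1 were higher and 2, 5, 5, 5 and 5 lower. The lower calls at 1, 2, 3 and 6 h include Eomes, whose probe set is the one with 3 symbols counted above as Itga9. The 7 dendritic cell markers, of cells that carry CD11c, had 1, 2, 2, 3 and 2 higher and 3, 3, 2, 2 and 2 lower. Their average difference from 0 h was 0.12 at 6 h, when Itgax was lowest. The single markers moved in opposite directions there, between -1.17 and 1.22. Of 8 erythroid markers, 3, 0, 1, 0 and 3 were higher, and 2 were lower at 6 h. Where a monocyte or erythroid count of higher markers was 0, it was also 0 by an unadjusted p under 0.05. The part of these cell types in the changes of the 9 genes was not tested.

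**Figure D3:**
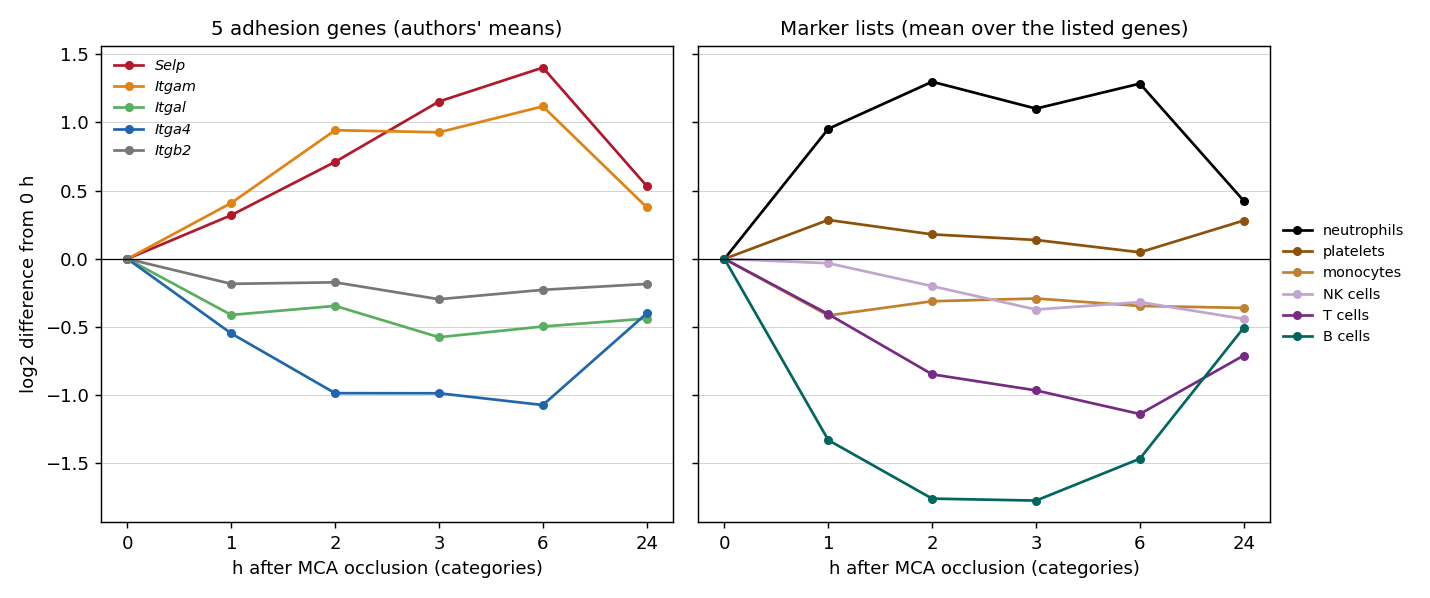
Left, difference from 0 h of the authors' mean log2 signal of 5 of the 9 genes. Right, the same difference averaged over the genes of 6 cell type marker lists, on the same axis, with time as equally spaced categories and colours that do not link the panels. Neutrophil markers stood 1.29 above 0 h at 6 h and platelet markers 0.05, with T cell markers at -1.14 and B cell markers at -1.47.

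Likeness between profiles was measured as the root mean square difference of the 5 changes from 0 h, as a description over 6 time points that share the 0 h arrays. Among the 9 genes, Selp and Itgam were 0.21 apart and Itgb2 and Icam1 0.12 apart, the closest pair, and Selp and Itga4 were farthest apart, at 1.74. The measure is not scaled, so genes that change little lie close together. Itgb2 and Icam1 had the smallest ranges of means of the 9 genes, 0.30 and 0.20. Of all other genes with a symbol, Mgst1 (0.08), Mboat1 (0.10) and Fbln1 (0.12) lay nearest to Selp. Mgst1, a microsomal glutathione transferase, rose by 0.31, 0.81, 1.07, 1.53 and 0.51 at the 5 time points. Nearest to Itgam were LOC688553, Gng10 and Tmem154 (0.06 to 0.07), and nearest to Itga4 were Macf1 (0.04), Scai and Tbl1x (both 0.07). The nearest to Selplg were Ldlrad1, Slc2a6 and Angptl6, to Itgal Higd1a, RGD1307100 and Mettl23, to Itgax LOC100359928, Zfp652 and Pabpc4, to Itgb2 Pdrg1, Ssna1 and Usp54, and to Cd44 Brox, LOC500034 and Vegp2. All of these lay within 0.02 to 0.05 of the member named.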

How the data were processed

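Whole blood cell pellets from 8 rats at 6 time points gave 47 gene arrays. The authors made the deposited log2 values with RMA (rma-gene-full on RaGene arrays, annotation na36 on rn5, per the file headers), and deposited the mean and SD of each probe set over the arrays of a time point. The submitters' processing notes name limma. RMA quantile normalizes the arrays, so changes are relative to the rest of the transcriptome, and array number limits the precision. A further 47 columns hold single arrays under a running number that no label gives. Columns were not assigned by their order or values, so these were left aside and the rat could not enter as a block. Columns of the authors' comparisons (fold changes, p-values and FDRs against 0 h, and F-tests) were not used either.

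Variances from the deposited SDs were pooled over the 6 time points (41 residual degrees of freedom) and moderated with squeezeVar of limma 3.58.1 in R 4.3.3, on all 27596 probe sets with no filter on low values. This gave limma's moderated tests of 1, 2, 3, 6 and 24 h against 0 h, of the 4 steps between neighbouring time points from 1 h on, and the moderated F-test, each with Benjamini-Hochberg adjustment over all probe sets and calls under 0.05. Samples of 1 rat were taken as independent. Tested on simulated data for 2 h against 0 h, the test recovered 195 of 200 changed probe sets among 27596, with 3.47% false calls. In the deposited data 11139 probe sets were called at 2 h, so these rates need not hold there. The members and lists were chosen with earlier results of these data known. Genes were named by rule. It took all 9 members, the 2 largest called rises and falls of each pathway list, and the 3 genes nearest to each member called by the F-test. It also took up to 3 of each marker list with the highest mean. Of the markers so picked, Ccr2, Gzmb, Klrb1a and Hba1 were left out of the text, since their probe sets carry several symbols. Sele, Fut4, Fut7, Tpst1, Tpst2, B4galt1, St3gal6, Itgb7, Itga9, Ngp, Il7r and the promoter motifs were picked outside this rule, after their values were seen. 1 listed gene is not reported here. Promoters came from RefSeq (GRCr8). Alternatives were centred means, quantile-normalized means, leaving out the dimmest 25% of probe sets, no moderation, an intensity trend with robust prior, the variance of the compared time points only, and leaving out 24 h.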

Additional observations from a re-analysis of the deposited data

How the results depend on the processing

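Across the 7 alternatives, 250 of the counts over the members and the 80 other adhesion genes stayed within 1.5 times their value and 6 moved. Of the values of single members, 581 kept direction and side of the threshold, 15 passed it newly, 4 lost it and 3 changed sign, none of the 3 a called value: Cd44 at 3 h with centred means (-0.037), and with quantile-normalized means Icam1 at 6 h (0.011) and Cd44 at 24 h (0.020). With centred means, 4 members were called lower at 1 h in place of 2, 1 in place of 0 from 2 to 3 h, and 13 adhesion genes higher at 1 h in place of 20. Over all probe sets, centring lowered the calls of higher signal from 5997 to 3465 at 1 h and from 4794 to 2749 at 24 h. With the variance of the compared time points only, 0 members in place of 1 were called higher from 3 to 6 h, and 2 adhesion genes in place of 5 were called lower, as was 1 in place of 2 from 2 to 3 h. Over all probe sets it moved the calls from 3 to 6 h from 645 to 396 higher and from 674 to 341 lower. The causes were not tested. No other probe set carried a member's symbol, so that alternative gave no value. No paired analysis was possible because the single-array columns are named by a running number that no label ties to a rat and an hour, and order was not used to assign them, and for the same reason no replicate could be left out in turn. Without pairing, differences between rats stay in the SDs, and how far single arrays stood over background is not known here.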
